A study of Mus musculus with 5 samples.

Results

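The Cyp4 omega-hydroxylases were examined here as a set of 8 named mouse genes, Cyp4a10, Cyp4a14, Cyp4a12a, Cyp4a31, Cyp4f13, Cyp4f14, Cyp4f15 and Cyp4v3. A gene was taken as measured where the array's annotation gave a probe set to that gene alone, which held for 7 of the 8, out of 19938 genes measured in this way. RNA came from the livers of 5 male wildtype C57BL/6N mice aged 5 to 6 months, with 1 Affymetrix whole-transcript array per mouse. All 5 mice had been given streptozotocin, a toxin of the insulin-producing beta cells used to induce diabetes, by intraperitoneal injection of 65 mg/kg on 5 consecutive days at 10 to 16 weeks of age. From 2 weeks after streptozotocin all 5 ate chow with bezafibrate, a lipid-lowering drug that activates peroxisome proliferator-activated receptors (PPARs), over a period of 8 weeks. The labels name 0.25% and 0.5% bezafibrate without saying which amount a mouse ate, and livers of mice without these compounds were not analysed here. The data therefore show how the Cyp4 genes were expressed under both treatments and how they spread between mice, and no effect of either compound.

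Cytochrome P450 enzymes of the CYP4 family add a hydroxyl group to the terminal (omega) carbon of fatty acids and of signalling lipids made from arachidonic acid. Alcohol and aldehyde dehydrogenases can turn the product into a dicarboxylic acid, which is shortened in peroxisomes. In rodent liver the Cyp4a genes are classic targets of PPARA, the receptor at which fibrates act, and Cyp4a10 and Cyp4a14 are widely used as markers of its activity. Enzymes of the Cyp4f subfamily are known for the inactivation of leukotriene B4, a lipid that attracts neutrophils. In the RefSeq gene table the measured Cyp4a genes lie in a cluster on chromosome 4, where Cyp4a14 and Cyp4a10 are neighbours, and the Cyp4f genes lie on chromosome 17, where Cyp4f14 and Cyp4f13 are neighbours.

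Promoter windows of the measured Cyp4f genes are shown because Cyp4f14 had the widest spread between mice of the measured set while Cyp4f13 and Cyp4f15 had small spreads. Each window runs 5′ to 3′ on the gene's strand, from 250 bases before to 50 after an annotated start (RefSeq, GRCm38.p6). The capitals mark CCAAT on either strand, which reads ATTGG where it lies on the opposite strand. Cyp4f14 (chr17:32917293-32917592, minus strand, the second of 4 annotated windows), Cyp4f13 (chr17:32947312-32947611, minus strand) and Cyp4f15 (chr17:32685409-32685708, plus strand) follow in that order.
Cyp4f14: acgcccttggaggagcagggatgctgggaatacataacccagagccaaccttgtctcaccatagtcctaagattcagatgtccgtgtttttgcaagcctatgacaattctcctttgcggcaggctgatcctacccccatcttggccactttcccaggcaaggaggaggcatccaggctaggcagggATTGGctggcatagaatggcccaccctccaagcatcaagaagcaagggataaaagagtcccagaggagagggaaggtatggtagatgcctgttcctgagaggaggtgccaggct
Cyp4f13: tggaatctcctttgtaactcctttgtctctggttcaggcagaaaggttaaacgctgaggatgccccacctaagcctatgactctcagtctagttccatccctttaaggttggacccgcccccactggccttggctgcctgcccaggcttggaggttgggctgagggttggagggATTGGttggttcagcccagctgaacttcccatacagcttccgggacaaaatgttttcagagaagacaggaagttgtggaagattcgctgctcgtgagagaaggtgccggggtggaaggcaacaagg
Cyp4f15: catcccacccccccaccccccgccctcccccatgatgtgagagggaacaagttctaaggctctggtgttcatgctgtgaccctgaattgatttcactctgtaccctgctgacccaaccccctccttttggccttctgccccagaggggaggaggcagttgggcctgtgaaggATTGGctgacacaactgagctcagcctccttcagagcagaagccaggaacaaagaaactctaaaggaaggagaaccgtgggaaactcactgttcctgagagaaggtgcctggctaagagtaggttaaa

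The 3 windows each held 1 CCAAT on the opposite strand, which began 64 bases before the start in Cyp4f14, 76 before it in Cyp4f13 and 78 before it in Cyp4f15. CCAAT on either strand occurred in 37.9% of 27025 windows of the same length, counting 1 per gene. In all 3 printed windows it stood inside the run ggattgg, which 2.50% of these windows held on the gene's strand. All 3 also shared other runs of 7 bases, held by 2.01%, 4.09% and 4.56% of the 27025 windows. The run around CCAAT was therefore not the only one of its length. All these runs were found by being shared, so their percentages do not show whether the sharing is unusual. The 4 windows of Cyp4f14 differ in their start, so positions and runs hold for the printed one only. In its windows 1 and 3 the opposite-strand CCAAT began 50 and 77 bases before the start. Window 4 held CCAAT on the gene's strand instead, 24 bases before the start. Longer runs were shared by pairs. The printed windows of Cyp4f14 and Cyp4f15 shared ctgttcctgagag and those of Cyp4f13 and Cyp4f15 shared tgagagaaggtgcc, both after the start. Those of Cyp4f14 and Cyp4f13 shared aagcctatgac before the start. Window 1 of Cyp4f14 ends inside the run shared with Cyp4f15. The half-site AGGTCA of nuclear receptors (16.0% of windows), the TATA box TATAAA (14.2%), and the half-site repeated in the same direction after 1 base of any kind, with up to 3 mismatches in all (24.4%), the kind of repeat that PPAR dimers bind, were searched on both strands and had 0 matches in these 3 windows. The window of Cyp4v3, which is not printed, held 2 matches of the repeat, beginning 179 and 157 bases before the start, and 0 of the half-site, the TATA box and CCAAT. No window was found in the table used for Cyp4a10, Cyp4a14, Cyp4a12a and Cyp4a31.

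The values are log2 signals, on which 1 unit is a factor of 2, and those of different probe sets were not compared with each other. All 7 measured genes exceeded the brightness floor on all 5 arrays, against 60.0% of all 19938 genes. The floor is the 95th percentile, per array, of olfactory and vomeronasal receptor probe sets, and lay between 5.59 and 6.07. Hepatocyte markers were present, with 11 of 11 measured genes above the floor, and their mean level lay between 12.80 and 12.87 across the mice. The array of mouse 4 stood somewhat apart, as 36.5% of 13336 tested genes had their lowest value in it and 8.47% their highest. Array pairs correlated across probe sets with Pearson's r of 0.971 to 0.993, and probe sets are not independent replicates.

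**Figure D1:**
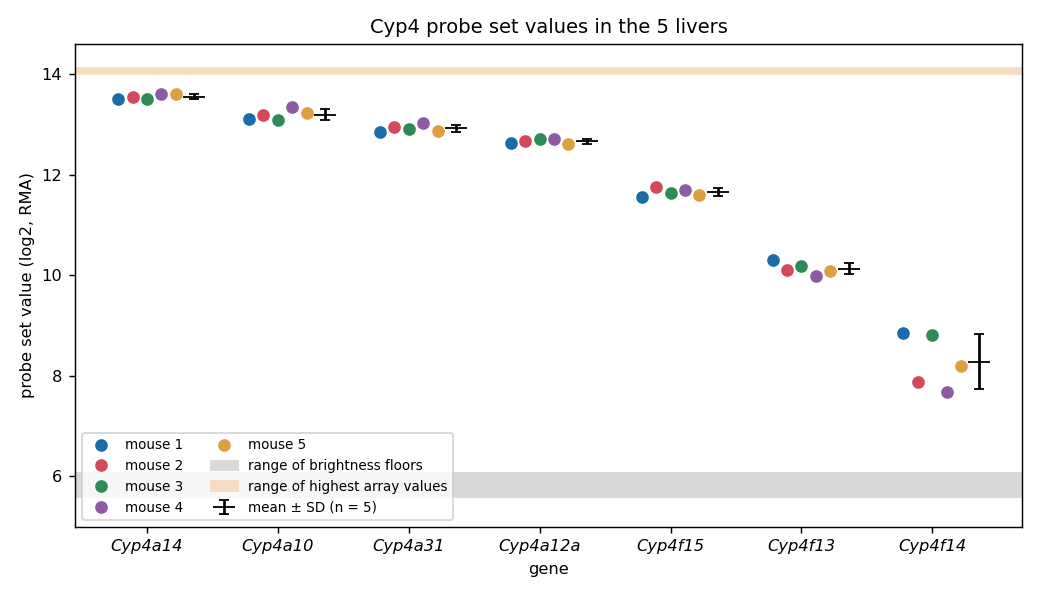
Log2 values (y axis) of the probe sets of the 7 measured Cyp4 genes in each liver (coloured points), with the mean and SD of 5 mice beside them, the range of brightness floors in grey and the range of the highest array values in orange. Cyp4f14 ranged from 7.68 to 8.86, while the 5 values of each Cyp4a gene lay within 0.28 of each other.

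The 4 measured Cyp4a genes had nearly the same value in all 5 livers. Cyp4a10, a fatty acid hydroxylase gene of the PPARA response, had values of 13.12, 13.18, 13.08, 13.36 and 13.22 in mice 1 to 5. Mouse 4 was highest and stood 0.13 above mouse 5, and the other neighbouring values in the order 4, 5, 2, 1, 3 differed by 0.04 to 0.06, less than the SD expected at this level. The mean was 13.19 ± 0.11 (SD, n = 5), a span of 1.21-fold. The variance between mice was 2.22 times that expected for a probe set of this level, which did not pass (upper-tail F test with limma's variance fit, adjusted p = 0.992).

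Cyp4a14, the neighbour of Cyp4a10 and also a hydroxylase gene of the PPARA response, had 13.50, 13.54, 13.51, 13.61 and 13.62 in mice 1 to 5. Mice 4 and 5 were a little higher than the other 3, with a gap of 0.07 between mice 4 and 2. Its mean was 13.56 ± 0.05 (SD, n = 5), and its span of 1.08-fold corresponded to 0.65 times the expected variance. The probe set lay 0.38 to 0.62 below the highest value of the same array, and whether saturation compressed the differences was not tested.

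Cyp4a12a, the gene of a male-predominant enzyme that makes 20-HETE from arachidonic acid in mice, had 12.63, 12.66, 12.71, 12.70 and 12.60. It was highest in mouse 3 and lowest in mouse 5, and no 2 neighbours in the order differed by more than 0.04. With a mean of 12.66 ± 0.05 (SD, n = 5) and a span of 1.08-fold, it had the smallest ratio to the expected variance of the 7 genes, 0.36. The lower-tail F test for a variance smaller than expected did not pass either (limma adjusted p = 0.985, unadjusted p = 0.173).

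Cyp4a31, a close relative of Cyp4a10 in the same cluster, had 12.84, 12.96, 12.91, 13.03 and 12.88 in mice 1 to 5. Mouse 4 was highest, as for Cyp4a10, and mouse 1 lowest. The mean was 12.92 ± 0.07 (SD, n = 5) and the variance 0.98 times the expected one. A further probe set, which the annotation gives to Cyp4a32, Cyp4a31 and Cyp4a10 together, had 13.11, 13.22, 13.22, 13.36 and 13.29. It was highest in mouse 4 as well. Since sequence is shared among these genes, the signals of Cyp4a10 and Cyp4a31 may each hold transcripts of the other, and probe sequences were not analysed here.

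Over the 4 Cyp4a genes the mean difference from the gene's own mean was -0.06, 0.00285, -0.03, 0.09 and -0.00415 in mice 1 to 5. This mean was highest in mouse 4, as were Cyp4a10 and Cyp4a31, whereas Cyp4a14 was highest in mouse 5 and Cyp4a12a in mouse 3. Of 83 other tested genes at least as bright as Cyp4a12a, 26.5% were highest in mouse 4, among them Alb (0.08 above its own mean there). Without mouse 4 the SD of Cyp4a10 was 0.06, against 0.11 with all mice.

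Among the Cyp4f genes, Cyp4f14 differed most between the livers. Cyp4f14, whose enzyme hydroxylates leukotriene B4 in mice, had 8.86, 7.87, 8.82, 7.68 and 8.20 in mice 1 to 5. Mice 1 and 3 were high and within 0.04 of each other, mouse 5 stood 0.61 below mouse 3, and mice 2 and 4 were lowest. The mean was 8.29 ± 0.54 (SD, n = 5), a span of 2.27-fold, against an expected SD of 0.12. The values lay 1.60 to 3.27 above the floors of their arrays.

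The variance of Cyp4f14 was 19.4 times the expected one, rank 127 of 14586 tested probe sets, with an unadjusted p of 0.0012 and a limma adjusted p of 0.137 (upper-tail F test), so it did not pass at 0.05. Centring each array on its median gave a limma adjusted p of 0.0465 and leaving out mouse 5 one of 0.0462, both past the threshold, while the other 11 alternatives gave 0.147 to 0.542. The SD without any 1 mouse stayed between 0.48 and 0.62.

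Cyp4f13, the neighbour of Cyp4f14, had 10.31, 10.11, 10.18, 9.99 and 10.09 in mice 1 to 5. Mice 1 and 3 were the highest and mouse 4 the lowest, as for Cyp4f14, over a span of 1.24-fold. From mouse 3 down, however, neighbouring values of Cyp4f13 differed by at most 0.09, less than the expected SD of 0.10. The mean of Cyp4f13 was 10.13 ± 0.12 (SD, n = 5) and its variance 1.27 times the expected one (limma adjusted p = 0.992). Cyp4f15 had 11.57, 11.76, 11.63, 11.70 and 11.60, with mice 2 and 4 highest and mouse 1 lowest. This is another order of mice than in Cyp4f14, but with a mean of 11.65 ± 0.08 (SD, n = 5) and a variance 0.84 times the expected one, neighbouring values of Cyp4f15 differed by at most 0.07, less than the expected SD of 0.09.

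Cyp4v3 is the mouse counterpart of human CYP4V2, the gene altered in Bietti crystalline dystrophy of the retina. Its only annotated probe set is shared with Klkb1, the plasma prekallikrein gene that lies beside it, so Cyp4v3 had no value of its own. That shared probe set read 10.94, 11.08, 11.08, 11.08 and 10.88 in mice 1 to 5, with mice 2, 3 and 4 alike and mice 1 and 5 lower. Its signal cannot be given to either gene.

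**Figure D2:**
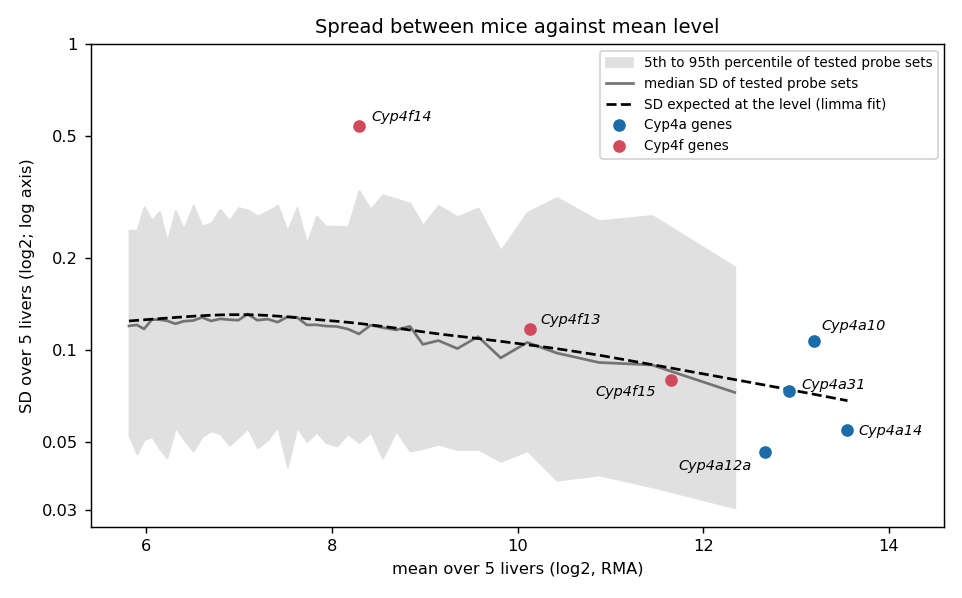
SD over the 5 livers (y axis, log scale) against the mean log2 value (x axis) for the 7 measured Cyp4 genes, over the 5th to 95th percentile band (grey), the median (grey line) and the SD expected from the limma fit (dashed) of all tested probe sets in 40 bins of level. Cyp4f14, with an SD of 0.54 where 0.12 was expected, lies above the band and the other 6 lie near the expected SD.

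Of the 7 measured genes, 0 had a variance above that expected for their level after adjustment over all genes, where 0.357% of the 14586 tested probe sets were called (limma F test, 52 probe sets). At an unadjusted p under 0.05, 1 of the 7 (Cyp4f14) was above, against 6.34% of tested probe sets. The median ratio to the expected variance was 0.98 for the 7 genes and 0.93 for all tested probe sets. The ratio was under 1 for 4 of the 7 and for 53.1% of all tested. For a variance smaller than expected, 0 of the 7 and 0% of tested probe sets were called by the lower-tail limma F test. At an unadjusted p under 0.05 these were 0 of the 7 and 5.22% of tested probe sets. Under the alternative settings the adjusted lower-tail test called at most 1 probe set, so its 0 of the 7 says little about these genes. With ratios of 0.36 to 2.22 to the expected variance, the Cyp4a genes had spreads near those of other probe sets as bright.

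Of 15 other Cyp4 genes looked for, 9 had a probe set of their own and 3 of these exceeded the floor in all mice. Cyp4a12b, a near copy of Cyp4a12a, had 12.57, 12.66, 12.68, 12.71 and 12.54, a mean of 12.63 ± 0.07 (SD, n = 5), and was lowest in mouse 5 like Cyp4a12a. Signals of Cyp4a12a and Cyp4a12b cannot be told apart where their sequences are the same. Cyp4b1 had a mean of 8.92 ± 0.07 and a span of 1.13-fold.

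Cyp4f16 was the other Cyp4f gene with a wide spread. It had 7.14, 7.68, 7.20, 7.45 and 7.94 in mice 1 to 5, a mean of 7.48 ± 0.33 and 6.71 times the expected variance, which did not pass (unadjusted p = 0.0196, limma adjusted p = 0.540). It was lowest in mice 1 and 3, the mice in which Cyp4f14 was highest. Cyp4f41-ps, a transcribed pseudogene, exceeded the floor in 4 mice (mean 5.86 ± 0.11), Cyp4f18, whose enzyme acts on leukotriene B4 in mouse neutrophils, in 1 (5.58 ± 0.20), and Cyp4f37, Cyp4f39, Cyp4f40 and Cyp4x1 in 0. The neutrophil marker list was also near background, with 2 of 9 genes above the floor in all mice.

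**Figure D3:**
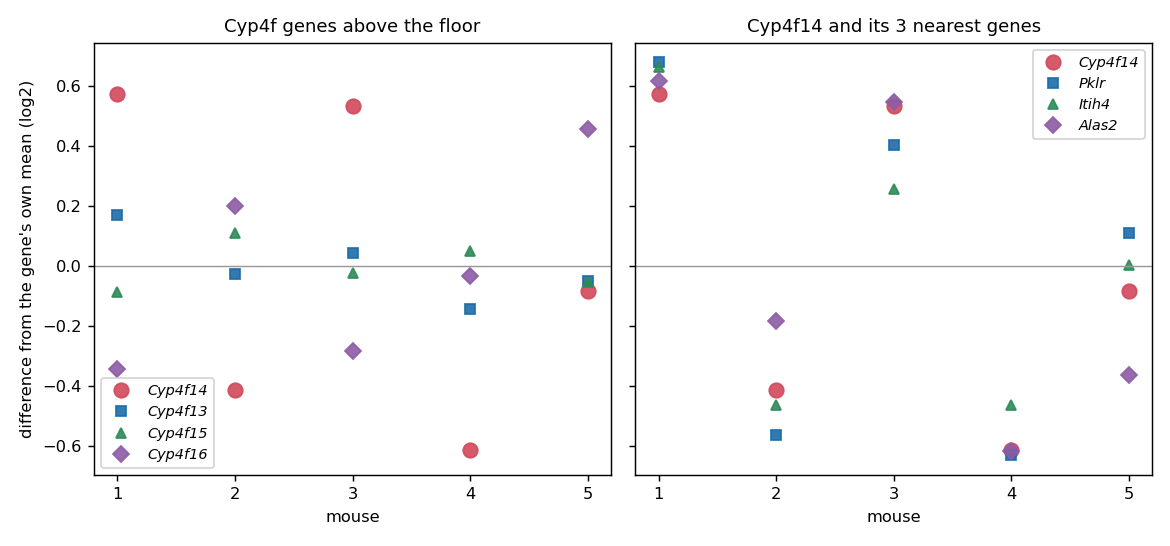
Difference of each liver from the gene's own mean (y axis, log2) for mice 1 to 5 (x axis), left for the Cyp4f genes above the floor in all mice and right for Cyp4f14 with its 3 nearest genes. Cyp4f14 was high in mice 1 and 3 and low in mice 2 and 4, Cyp4f16 was lowest in mice 1 and 3, and Pklr, Itih4 and Alas2 ran close to Cyp4f14.

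Likeness was measured as the root mean square difference over the 5 arrays after each gene was centred on its own mean, among 13335 other tested genes. Nearest to Cyp4f14 was Pklr (liver pyruvate kinase, 0.133), followed by Itih4 (a secreted liver protein, 0.153) and Alas2 (heme synthesis in red cell precursors, 0.163), set against 0.482 for Cyp4f14 from its own mean. Pklr had 10.30, 9.06, 10.02, 8.99 and 9.73 in mice 1 to 5, so it shared the high mice 1 and 3 and the low mice 2 and 4. Nearest to Cyp4f13 were E2f4 (0.0128), Mad1l1 (0.0144) and Zfp282 (0.0146), and nearest to Cyp4a10 were Chic2 (0.0153), Nol7 (0.0196) and 4931440P22Rik (0.0212). Those 2 members moved by only 0.105 and 0.0958 from their own means, so many genes with small spreads come close to them.

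Cyp4f14 was highest in mouse 1 and lowest in mouse 4, and so was the mean deviation of 8 of the 25 gene lists examined. The same held for 12.1% of 13336 single tested genes, a measure unlike that of list means. In mouse 2 Cyp4f14 lay 0.41 below its own mean, and the 8 lists deviated there by -0.18 to -0.0011. In mouse 3 Cyp4f14 lay 0.53 above its own mean, whereas the 8 lists deviated there by -0.14 to 0.04. Of the 8, pericentral hepatocyte genes and stellate cell markers had the 5 mice in the same order as Cyp4f14. The other lists did not. Kupffer cell and macrophage markers, 11 of 12 above the floor in all mice, had a mean level between 8.68 (mouse 4) and 9.28 (mouse 1) and deviated by 0.37, -0.18, -0.05, -0.23 and 0.09 in mice 1 to 5. Pericentral hepatocyte genes deviated by 0.15, -0.02, 0.04, -0.16 and -0.01, and erythroid markers (4 measured, Alas2 among them) by 0.35, -0.03, 0.01, -0.30 and -0.03. Acute-phase genes (20 measured, Itih4 among them) deviated by 0.38, -0.06, -0.14, -0.21 and 0.03. The other 4 lists, of PPARA and its partners, leukotriene genes, endothelial and stellate cell markers, deviated by at most 0.12 in either direction. Hepatocyte markers deviated by 0.02, -0.02, 0.01, 0.02 and -0.04. Their part in the spread of Cyp4f14 was not tested. In bulk liver, fewer cells of a type and less RNA per cell cannot be told apart.

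The enzymes that act with and after the omega-hydroxylases also had small spreads for the most part. A list of electron donors of P450 enzymes also held Pgrmc1 and Pgrmc2, which are not counted as donors here. Of its 6 tested genes 0 passed and 1, Pgrmc2, had an unadjusted p under 0.05 (limma F test), against 6.34% of tested probe sets. Cyb5a (cytochrome b5) had 13.01 ± 0.07 (SD, n = 5). Pgrmc2, a heme-binding membrane protein gene, had the widest spread of this list (SD 0.27, mean 8.80, limma adjusted p = 0.716). Among alcohol and aldehyde dehydrogenases that turn omega-hydroxy acids into dicarboxylic acids, 0 of 6 tested genes passed. Adh1 was nearly equal in all livers at 13.53, 13.54, 13.53, 13.58 and 13.55, a span of 1.04-fold, and Aldh3a2, the fatty aldehyde dehydrogenase gene, had 12.74 ± 0.07. Aldh3b1 was the widest with an SD of 0.21.

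Peroxisomal genes for the uptake and shortening of dicarboxylic acids had 1 of 20 tested genes called, the thioesterase gene Acot5 (7.61 ± 1.15, limma adjusted p = 0.0101), against 0.357% of all tested probe sets. The call of Acot5 was lost in 5 of 13 alternatives (limma adjusted p from 0.0506 to 0.149), which were the fits without mouse 2, 3 or 4, with all probe sets tested and without the robust step. Without mouse 4, and with all probe sets tested, 0 probe sets of any gene were called. Acot3 (SD 0.43) and Nudt7 (SD 0.41), which encodes a hydrolase of coenzyme A compounds, followed and did not pass. The transporter gene Abcd3 had 12.42 ± 0.07 and Ehhadh, whose enzyme is needed for dicarboxylic acid breakdown, 13.52 ± 0.06, both with a smaller variance than expected for their level, at 0.76 and 0.80 times. Ratios to the expected variance had a median of 1.81 in this list, 0.98 in the 7 Cyp4 genes and 0.93 over all tested probe sets.

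Among PPARA, its partners and coregulators, 0 of 12 passed. Ppara had 10.79, 10.75, 10.80, 10.78 and 10.45 in mice 1 to 5, so mouse 5 was low and the other 4 were alike. In mouse 5 Cyp4a14 was highest, Cyp4a10 second highest, Cyp4a31 second lowest and Cyp4a12a lowest. Pparg had an SD of 0.25, Ppargc1a of 0.20 and Rxrg of 0.16. Other fatty acid hydroxylases and epoxygenases, mainly Cyp2 genes, had wider spreads. Their median SD was 0.20, against 0.08 for the 7 Cyp4 genes and 0.12 for all tested probe sets, but the SD falls with level. Ratios to the variance expected at the level had a median of 5.75 in this list, 0.98 in the 7 Cyp4 genes and 0.93 over all tested probe sets. Of these 14 genes 0 passed and 8 had an unadjusted p under 0.05, against 6.34% of tested probe sets. Cyp2c37 had the widest spread at 9.63 ± 0.62, followed by Cyp2c39 (SD 0.50) and Cyp2c38 (SD 0.37).

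Genes of leukotriene synthesis and breakdown were dim, with 3 of 8 above the floor in all mice, and 0 of 5 tested genes passed. Dpep1 and Ptgr1 had an SD of 0.28 and Alox5ap of 0.23. A list of male-biased liver genes was also examined, to which Ghr, Stat5a and Stat5b of growth hormone signalling had been added. Its genes varied more than Cyp4a12a, with 2 of 12 tested genes called (Mup3 and Elovl3), against 0.357% of all tested probe sets. Both calls were lost without mouse 4 (limma adjusted p = 0.136 each, SD 0.89 for Mup3 and 0.86 for Elovl3) and with all probe sets tested. In both settings 0 probe sets of any gene were called, so these losses are not particular to Mup3 and Elovl3. The call of Mup3 was also lost without mouse 3, where its SD was 0.40 against 0.82 in all mice. That of Elovl3 was lost without mouse 2 and without mouse 5, where its SD was 0.39 against 0.75. Over the 13 alternatives Mup3 lost its call in 5 and Elovl3 in 6. The list deviated by 0.06, 0.03, 0.38, -0.16 and -0.31 in mice 1 to 5. Cyp4a12a was also highest in mouse 3 and lowest in mouse 5, but only by gaps of 0.01 and 0.02 to the next mouse. Both gaps are less than its expected SD of 0.08, and in mouse 4 it lay 0.04 above its own mean. Its span was 1.08-fold, against 3.82-fold for Mup3 and 3.58-fold for Elovl3, a fatty acid elongase gene.

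**Figure D4:**
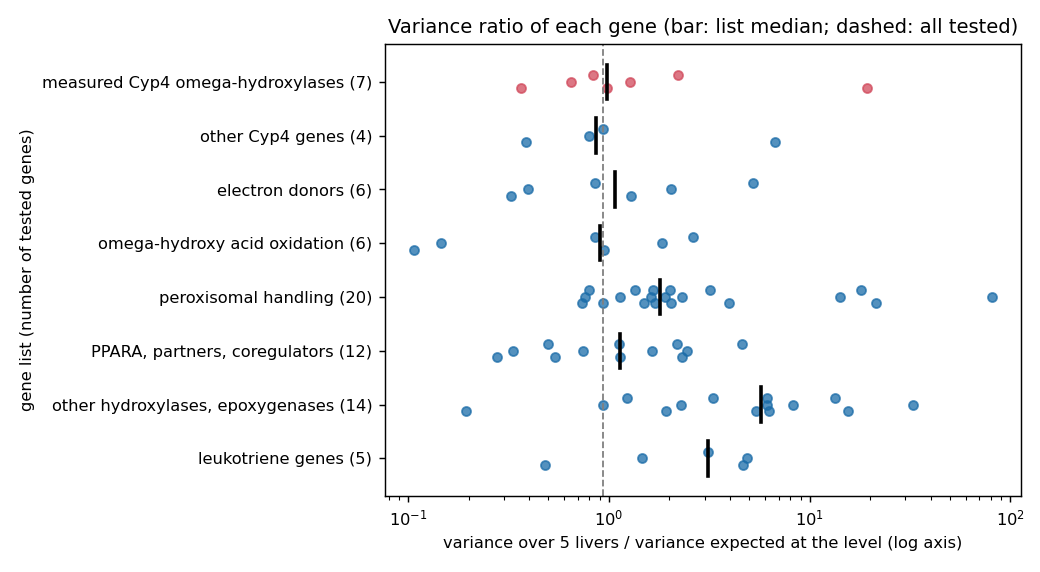
Variance over the 5 livers divided by the variance expected at the level (x axis, log scale) for each tested gene of the Cyp4 set and of 7 related lists (y axis), with the median of each list as a bar and that of all tested probe sets, 0.93, as a dashed line. Cyp4f14 at 19.4 lies apart from the other Cyp4 genes, whose ratios ran from 0.36 to 2.22, and Acot5 at 80.7 has the largest ratio shown.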

How the data were processed

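Total RNA of 5 livers was labelled with biotin and hybridised to 1 array each. The deposited values are log2 signals per probe set made by the authors with RMA and Affymetrix Expression Console 1.2, per the submitters' processing notes, and their settings and build are not given in the sources used here. Of 35556 probe sets, 21789 had 1 gene symbol, 1621 several and 12146 none. Of those with 1 symbol, 21698 matched the RefSeq table by gene ID. Where a gene had several, the brightest on average was used. Tested were 14586 probe sets whose mean exceeded the 95th percentile of the means of 1210 receptor probe sets. An intercept model was fitted with limma 3.58.1 in R 4.3.3. F tests set the variance, with 4 residual degrees of freedom, against that expected at the same level (fitFDistRobustly, statmod 1.5.0, prior degrees of freedom 6.21), with Benjamini-Hochberg adjustment over all tested probe sets at 0.05. The procedure was tested on simulated data, with planted spreads much wider or much narrower than those of the Cyp4 genes. That run does not show how often spreads of the Cyp4 size would be called.

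Arrays give no depth or molecule count, and their number limits the precision. Members, gene lists and tests were chosen with earlier results of these data known. Named were all members, all other Cyp4 genes, 6 fixed genes with a probe set of their own, the 3 genes with the widest spread of each pathway list, the 3 genes nearest to each of the 3 widest members, and the 2 brightest genes of each marker list, of which the last are given only within their lists. Mice are separate biological replicates per the labels, and their numbers serve as names. Python 3.11.15, numpy 2.4.6 and pandas 2.3.3 were used for tables and sequences.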

Additional observations from a re-analysis of the deposited data

Results flagged for a closer look

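A mouse stood far from the other 4 in 3 of the 88 named genes, and in 0 of the 7 measured Cyp4 genes, by Dixon's gap criterion (0.71 for 5 samples), which chance alone meets in about 1 of 20 groups. Ppara had 10.45 in mouse 5, against 10.75 to 10.80 for the other 4 mice. Ppargc1a, the gene of a coactivator of PPARs, had 8.20 in mouse 4, against 7.72 to 7.82. Dpep1, of leukotriene breakdown, had 6.61 in mouse 1, against 5.89 to 6.09, which is near the floor.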

How the results depend on the processing

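Over 13 alternative settings, the number of measured Cyp4 genes called with a larger variance than expected stayed at 0 except for 1, Cyp4f14, when arrays were centred on their medians (limma adjusted p = 0.0465) and without mouse 5. Over the 5 fits that leave out a mouse, it lay between 0 and 1, and the adjusted p of Cyp4f14 between 0.0462 and 0.371. The cause was not tested. The other 6 genes did not pass under any alternative run. The count over all tested probe sets, 52, became 142 when arrays were centred on their medians, 18 for a filter set 1 log2 unit higher and also 18 for a fit that was not robust, 24 for a fit with no trend, 31 for the mean of the probe sets of a gene, and 0 (1385 at an unadjusted p under 0.05, limma) for all probe sets tested. It lay between 0 and 69 when a mouse was left out. It was 0 without mouse 4 (864 at an unadjusted p under 0.05, limma), and leaving out mouse 3 gave 30, leaving out mouse 2 gave 34. All 7 measured genes stayed above the floor, also at the 99th percentile of the receptor probe sets, and their mean levels moved by less than 1 SD. No paired analysis was possible because all 5 livers belong to 1 group.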

Other observations

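Zonation and sex-biased lists gave further values. Periportal hepatocyte genes deviated by 0.01, 0.05, -0.04, 0.03 and -0.05 in mice 1 to 5, and 0 of 9 tested genes were called. Pericentral genes had 0 of 11 called, with Gulo (SD 0.34), Cyp1a2 (0.30) and Slc1a2 (0.28) widest. Of a list of female-biased genes 2 of 10 tested were called, Sult2a8 (SD 0.87) and Cyp2b13 (SD 0.86), and of the acute-phase list 4 of 19, Saa2, Lcn2, Orm2 and Orm3, of which Orm3 was named after its values were seen, against 0.357% of tested probe sets. All 6 calls were lost without mouse 4 and with all probe sets tested (limma adjusted p from 0.0881 to 0.281). In both settings 0 probe sets of any gene were called, so these losses are not particular to the 6 genes. Without mouse 3 the calls of Cyp2b13, Orm2 and Orm3 were also lost, with an SD of 0.47, 0.36 and 0.33 in that order. Calls were also lost without mouse 5 for Sult2a8, whose SD was then 0.33, and without mouse 1 for Saa2, whose SD was then 0.58. Without mouse 2 the calls of Cyp2b13 and Orm3 were lost too. Over the 13 alternatives Lcn2 lost its call in 2, Saa2 in 4, Orm2 and Sult2a8 in 5 each, Cyp2b13 in 8 and Orm3 in 9.

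Markers of other cell types and tissues above the floor in all mice numbered 1 of 7 T and NK cell, 2 of 5 B cell, 3 of 5 cholangiocyte, 1 of 5 pancreas, 2 of 7 kidney, 6 of 9 skeletal muscle, 4 of 7 adipocyte, 3 of 4 erythroid, 9 of 9 liver endothelial and 10 of 10 stellate cell genes.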
